A study of Mus musculus with 27 samples.

Results

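The step from hemogenic endothelium to blood was read from the untreated arrays alone, by setting hematopoietic progenitors (HP) against hemogenic endothelium 1 (HE1). Every array whose labels give one of these cell types and no doxycycline (DOX) was used, which gave 2 HE1 and 2 HP arrays, 4 of the 27 arrays in all. Total RNA was labelled with Cy3 and hybridised to mouse 8x60K Agilent arrays, and 37208 genes or transcripts were measured. The cells came from A2lox mouse embryonic stem cells (ESCs) carrying a Flag-tagged dominant-negative FOS (dnFOS) transgene, which blocks DNA binding of the AP-1 factors and is switched on by DOX. HE1 and HP cells all carried the transgene, and in the untreated cells it was not induced. ESC clones were picked after drug selection, and how many clones the arrays represent is not stated in the sources used here. ESCs grown on mouse embryonic feeder cells were differentiated as embryoid bodies for 3.75 days, FLK1+ cells were purified, and blast cultures of these cells were sorted. HE1 cells were sorted as KIT+ TIE2+ CD41-, and HP cells as KIT+ TIE2- CD41+. Between them lies HE2, sorted as KIT+ TIE2+ CD41+. The same cell types sorted after 2 days of 1 µg/ml DOX gave another 4 HE1 and HP arrays, which are used below as a second reading of the step.

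During the endothelial-hematopoietic transition (EHT), flat endothelial cells that line a vessel round up, lose contact with their neighbours and detach as blood progenitors. RUNX1 is required for this transition, and GFI1 and GFI1B, which it activates, repress endothelial genes. GATA1 and PU.1 (Spi1) then act as master regulators of erythroid-megakaryocytic and myeloid cells.

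Levels are given as the log2 signal of a gene relative to the 75th percentile of its array, so that 0 is the level of that percentile, and a difference is the HP mean minus the HE1 mean on the log2 scale. The 75th percentile signal was 140.5 and 145.1 on the HE1 arrays and 325.7 and 457.1 on the HP arrays, and 54.4% to 70.8% of the probe spots lay well above background. No spot was saturated. The genes behind the sort followed the labels: Itga2b (CD41) read 1.33 and 0.87 on the HE1 arrays and 3.25 and 3.01 on the HP arrays, and Tek (TIE2) 2.22 and 2.74 against 0.58 and -1.42. Kit read 3.47 and 3.83 against 4.89 and 4.80. These genes chose the cells and are no result. Replicates 1 of both cell types shared 1 slide and replicates 2 another, so that each slide held 1 array of each. The labels do not say whether the replicates were separate cultures, and the p-values measure only the spread between arrays.

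Of the gene lists described below, 17 of 32 genes shared by the blood lineages and 8 of 28 hematopoietic factors were called higher in HP, and 9 of 39 endothelial genes, 10 of 33 collagens and laminins and 6 of 14 Hox genes lower. Without HE1 replicate 1, no endothelial gene and 1 Hox gene was called lower. With all 27 arrays in 1 limma fit and a gene called where its p, adjusted by Benjamini-Hochberg, was below 0.05 and its change 2-fold or more, 425 of 25045 genes tested were higher in HP (1.70%) and 633 were lower (2.53%), 4.22% in either direction. The median difference was 3.55 among the genes called higher and -3.14 among those called lower. The median standard error over the genes tested was 0.7, and no gene past the adjusted p differed by less than 2-fold. Among the genes called higher, 27.5% were not well above background on any HE1 array, and among those called lower, 16.9% were not on any HP array. The lowest signal well above background was -3.56 and -3.96 on the HE1 arrays and -4.79 and -5.56 on the HP arrays. These shares therefore cannot be compared with each other. All 1058 called genes moved the same way on both slides, with no overlap of the HE1 and HP arrays. The same arrays chose these genes, so that this is no separate support. Over all genes tested, 26.2% had both HP arrays above both HE1 arrays and 24.1% had both below. With slide as a block in the fit, 1262 genes were called higher and 1281 lower, and all 425 and 633 were among them. With the replicate number, which is also the slide, as a block in a limma fit to these 4 arrays alone, 0 genes were called in either direction and no call of a named gene was kept. That fit had 1 residual degree of freedom, and 4258 genes had an unadjusted p under 0.05 in it. The balance of the directions depended on the scaling: 40.2% of the calls were higher, against 48.9% after normexp background correction, 50.8% after quantile normalization, 52.5% in the authors' processed values and 72.3% when each array was scaled to its median, which moved the median of all genes from 0.03 to 0.64. Leaving out 1 array left between 224 and 274 genes called higher and between 149 (without HP replicate 1) and 413 called lower. In sorted populations, fewer cells that express a gene and less of its RNA per cell cannot be told apart.

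The 12 genes with the largest fitted rises held chemokines, receptors and enzymes, and 8 of them were not well above background on any HE1 array, so that only a lower bound of their rise is known. Ccl3, the chemokine MIP-1 alpha, read -5.19 and -5.27 on the HE1 arrays and 2.96 and 4.75 on the HP arrays. It was not well above background on either HE1 array, which makes it at least 196-fold higher in HP (difference 9.09, SE 1.42, adjusted p = 0.000708). Another chemokine, Ccl9, read -2.31 and -4.17 against 5.38 and 5.37 (8.62, SE 1.06, adjusted p = 8.27e-05). Both chemokines thus passed from far below to far above the 75th percentile. Evi2a, a membrane protein gene within an intron of the neurofibromin gene, read -5.02 and -6.04 against 2.29 and 2.82, at least 79.8-fold higher. Adgrg5, an adhesion G protein-coupled receptor, read -5.08 and -5.42 against 2.28 and 2.59, at least 73.2-fold higher. Myo1f, a class I myosin of leukocytes, read -3.86 and -3.75 against 3.49 and 3.95, at least 166-fold higher. These 3 genes had the lowest adjusted p of all named genes, 7.92e-07. The coagulation factor XIII A subunit F13a1 was at least 83.8-fold higher, the myeloid lectin receptor Clec4d at least 69.8-fold, the UDP-sugar receptor P2ry14 at least 42.6-fold and the adhesion receptor Adgre4 at least 32.0-fold. The leukotriene-forming 5-lipoxygenase Alox5 (difference 7.23), the GTPase-activating protein Arhgap9 (7.20) and the hemoglobin-binding haptoglobin Hp (7.03) completed the 12. All 12 stayed called with any 1 of the 4 arrays left out.

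**Figure D1:**
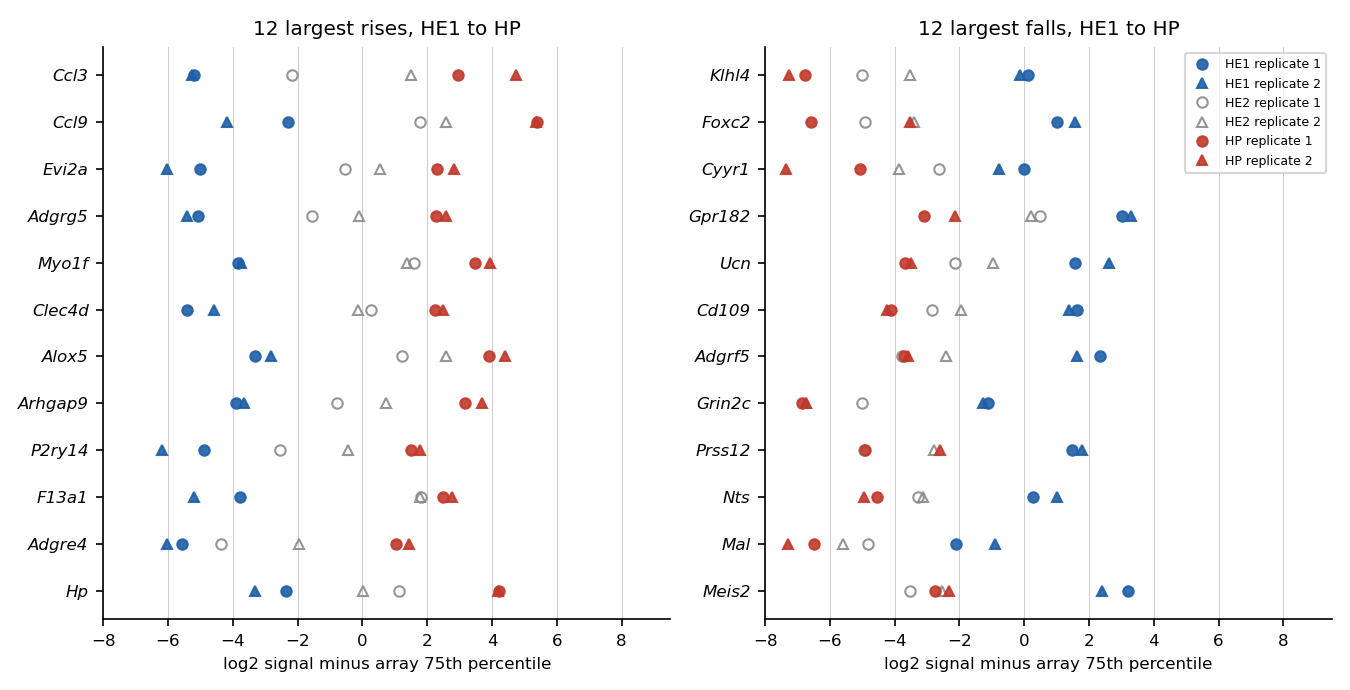
Levels of the 12 genes with the largest rises (left) and the 12 with the largest falls (right) on each untreated array, as log2 signal minus the array's 75th percentile; colours give the cell type and shapes the replicate. In both panels the HP arrays lie wholly to one side of the HE1 arrays, as the choice of genes required, and the HE2 arrays lie mostly between them.

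The 12 largest fitted falls held transcription factors, receptors, peptide hormones and a protease, and 4 of them were not well above background on any HP array. Klhl4, a kelch-like protein, read 0.12 and -0.13 on the HE1 arrays and -6.78 and -7.26 on the HP arrays, where it was not well above background, which makes it at least 36.0-fold lower (difference -7.01, SE 1.58, adjusted p = 0.0132). The call of Klhl4 was lost with any 1 of the 4 arrays left out. Foxc2, a forkhead factor of vascular and mesenchymal development, read 1.02 and 1.56 against -6.58 and -3.54 (-6.35, SE 1.15, adjusted p = 0.00249). Gpr182, a receptor of endothelial cells, read 3.01 and 3.30 against -3.11 and -2.13 (-5.78, SE 1.54, adjusted p = 0.0376), and was also not called in any of the 4 fits that left out an array. In each of these genes the HE1 replicates lay close together and the HP arrays lay more than 4 log2 units below them. Meis2, a homeobox factor that pairs with HOX and PBX proteins, had the lowest adjusted p of the named falls, at 3.21 and 2.39 against -2.75 and -2.31 (-5.33, SE 0.49, adjusted p = 3.63e-06). Cyyr1 was at least 27.5-fold lower, and the glutamate receptor subunit Grin2c at least 15.8-fold and the proteolipid Mal at least 12.7-fold. The TGF-beta co-receptor Cd109 fell by 5.68, the adhesion receptor Adgrf5 by 5.62, the peptide hormone genes Ucn (urocortin) and Nts (neurotensin) by 5.70 and 5.39, and the serine protease Prss12 by 5.40. Of these, Ucn was not called in any fit without 1 array and Adgrf5 in only 1 of the 4. Several called genes were well above background on 1 of the 2 arrays of the dimmer group only, so that their differences are not exact: Ccl9, Arhgap9, Foxc2, Nts and Prss12 here, and below Gp9, Cd14, Cx3cr1, Ccr2, Hey2, Maf, Dkk1, Dkk3, Lgr5, Hoxb5, Oas2, Ifi202b, Ifi204 and Pdgfra.

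The promoters of some called genes carry the letters that RUNX, GATA, AP-1 and TEAD factors are known to bind. Of the 10 shown, 6 belong to the 24 genes above (Ccl3, Myo1f, F13a1, P2ry14, Ccl9 and Nts), and the stretches around such a match are shown to let the reader see where it lies. They are RefSeq promoter sequences of build GRCm38.p6, written 5′ to 3′ along the gene and in lower case, and the capitals mark the match on either strand. Of the 24 genes above, 18 had a promoter in the table used. The first 3, from genes that rose, hold TGTGGT, the core letters bound by RUNX factors, and Gp9 holds it on the other strand. The match starts 122 bases before the start site of Ccl3 (chr11:83649445-83649550, minus strand), 19 before that of Myo1f (chr17:33555638-33555706, plus strand) and 171 before that of Gp9, a platelet glycoprotein (chr6:87777849-87777954, plus strand).
Ccl3: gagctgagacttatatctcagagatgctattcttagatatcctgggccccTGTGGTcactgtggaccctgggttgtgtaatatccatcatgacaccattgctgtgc
Myo1f: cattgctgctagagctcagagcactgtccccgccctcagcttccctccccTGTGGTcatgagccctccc
Gp9: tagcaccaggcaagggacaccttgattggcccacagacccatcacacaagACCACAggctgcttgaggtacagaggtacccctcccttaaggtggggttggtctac

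GATAAG, the letters bound by GATA factors, lies 119 bases before the start site of Gfi1b (chr2:28622046-28622151, minus strand) and 55 before that of F13a1 (chr13:37050245-37050349, minus strand), both of which rose.
Gfi1b: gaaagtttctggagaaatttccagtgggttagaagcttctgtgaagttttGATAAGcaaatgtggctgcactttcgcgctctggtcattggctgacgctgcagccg
F13a1: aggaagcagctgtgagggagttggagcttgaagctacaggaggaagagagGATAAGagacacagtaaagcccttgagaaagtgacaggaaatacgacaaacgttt

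TGANTCA, searched with any base at N, is wider than the AP-1 site, which has C or G there. It was found before genes of either direction. It lies 202 bases before the start site of P2ry14 (chr3:59153638-59153742, minus strand) and 53 before that of Ccl9 (chr11:83578637-83578739, minus strand), which rose. In Nts (chr10:102490569-102490668, minus strand), which fell, it lies 207 bases before the start site. The base at N is C in P2ry14 and G in Nts, but A in Ccl9, which is not the AP-1 site. The letters GGAATG of the TEAD factors lie 207 bases before Edn1 (chr13:42301226-42301324, plus strand), on the other strand, and 141 before Yap1 (chr9:8004682-8004787, minus strand), both of which fell.
P2ry14: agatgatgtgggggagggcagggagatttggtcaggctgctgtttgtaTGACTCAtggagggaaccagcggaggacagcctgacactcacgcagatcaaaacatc
Ccl9: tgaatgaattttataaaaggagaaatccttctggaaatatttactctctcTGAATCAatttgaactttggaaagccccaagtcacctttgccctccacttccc
Nts: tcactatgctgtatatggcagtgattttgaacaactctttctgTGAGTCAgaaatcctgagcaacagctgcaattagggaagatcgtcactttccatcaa
Edn1: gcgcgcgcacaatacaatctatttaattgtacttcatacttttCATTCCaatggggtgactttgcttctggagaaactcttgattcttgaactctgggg
Yap1: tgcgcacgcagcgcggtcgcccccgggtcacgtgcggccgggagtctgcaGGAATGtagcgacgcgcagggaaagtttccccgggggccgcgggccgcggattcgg

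Across all promoters of 250 bases before to 50 after the start site, RUNX letters were held by 21.8% of the 294 called higher, 11.4% of the 351 called lower and 13.1% of the 11733 tested. GATA letters were held by 10.2%, 6.84% and 5.53%. RUNX letters were more frequent among genes called higher than among those called lower under every alternative that called genes, with shares of 16.0% to 27.6% against 9.5% to 12.6%. The order of the GATA shares turned after normexp correction (8.70% and 9.13%), with median scaling (9.27% and 9.45%) and in the 4 arrays alone (9.39% and 9.46%). The E-box order given below turned with median scaling (6.27% and 4.72%), in the 4 arrays alone (6.63% and 5.41%), at an adjusted p under 0.01 (9.04% and 7.19%), with slide as a random block (8.49% and 8.14%) and without HE1 replicate 1, HE1 replicate 2 or HP replicate 1. The ETS order turned under several alternatives (20.5% and 16.2% in the authors' values). TGANTCA, with any base at N, was held by 7.82% of the promoters of genes called higher, 3.99% of those called lower and 5.47% of all tested. TEAD letters were held by 12.2%, 15.1% and 12.4%. CGGAAG, the ETS letters, was held by 14.3% and 15.1% of the promoters of genes called in either direction, below the 28.2% over all tested, and the E-box CACGTG by 6.12%, 9.40% and 9.62%. Each was searched on both strands, none of the 6 contains another, and these shares are descriptions with no test. With slide as a fixed block, which called about 3 times as many genes higher, the RUNX share was 16.0% and the ETS share 27.1%.

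The count of each gene list from here on stands against 1.70% higher and 2.53% lower over all genes tested. Of 28 hematopoietic transcription factors tested, 8 rose and none fell, and 23 differences were positive. In the authors' values and with slide as a fixed block 1 was called lower. Their median difference was 1.01, against 0.03 over all genes tested. Runx1 read 0.25 and -0.35 on the HE1 arrays and 4.21 and 4.90 on the HP arrays (difference 4.61, SE 0.68, adjusted p = 0.000443). Gfi1b read -0.60 and 0.31 against 4.69 and 5.02 (5.00, SE 0.80, adjusted p = 0.000834). Both were thus already near the 75th percentile in HE1 before they rose. Spi1, the gene of PU.1, read -5.31 and -5.55 against 1.74 and 0.86, and was at least 33.4-fold higher (adjusted p = 0.000312). Ikzf1 (IKAROS) read -5.61 and -3.77 against 1.39 and 2.35, at least 46.4-fold higher, and its other probe gave a difference of 3.22 against 6.56. Spi1 and Ikzf1 were not above background on any HE1 array. Gata1 read -1.80 and -3.46 against 3.57 and 3.87 (6.35, SE 0.85, adjusted p = 0.000184). Myb, required for definitive blood cells, rose by 5.95, the erythroid-megakaryocytic factor Nfe2 by 4.83, and the IKAROS relative Ikzf2 by 4.15. The 8 genes were called with any 1 array left out and under every scaling run.

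The other core factors of blood specification lay above the 75th percentile in both cell types and were not called. Tal1 (SCL) read 4.16 and 4.38 against 5.00 and 5.22 (0.84, SE 0.97), Lmo2 3.28 and 3.19 against 4.19 and 4.36 (1.04, SE 0.80), Lyl1 5.36 and 5.24 against 6.41 and 7.15 (1.48, SE 1.10), and Gata2 2.06 and 2.52 against 2.26 and 2.13 (-0.09, SE 1.12). Gfi1, the relative of Gfi1b, read 1.81 and 1.98 in HE1 and 0.36 and 0.37 in HP (-1.53, SE 1.09, adjusted p = 0.620), a difference that did not pass the test although the arrays did not overlap.

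**Figure D2:**
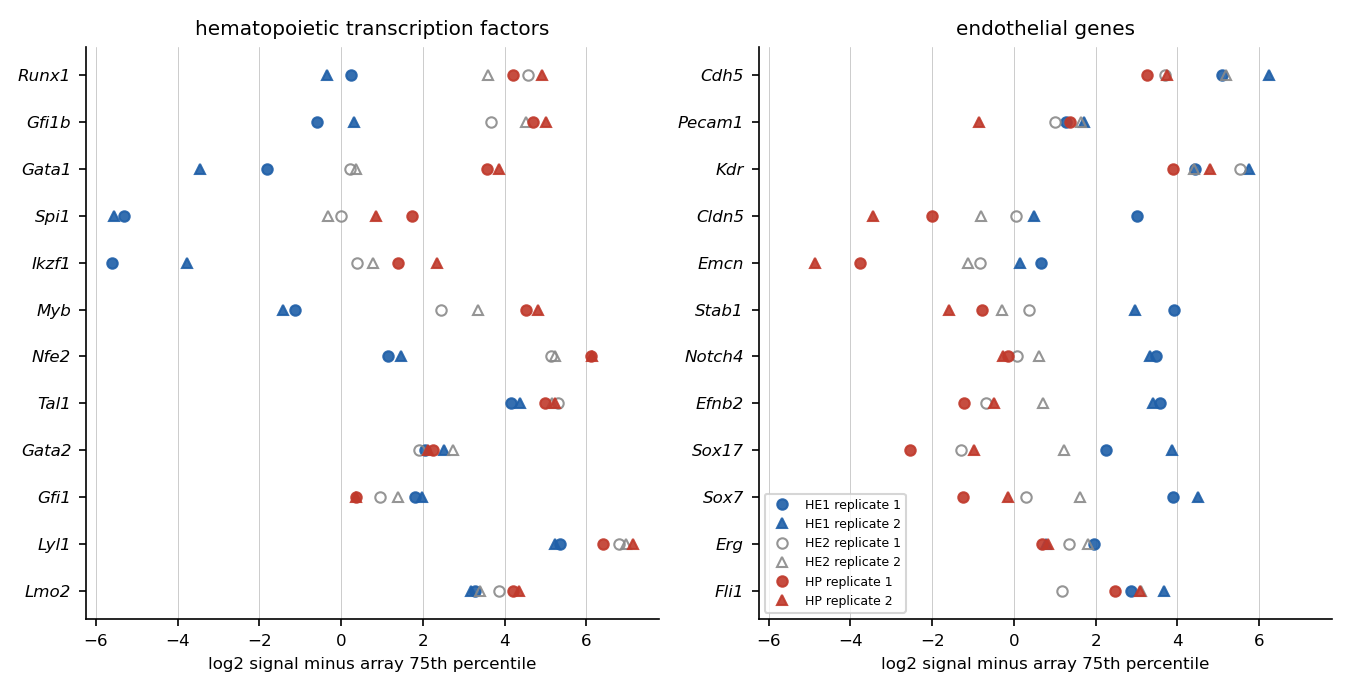
Levels of hematopoietic transcription factors (left) and endothelial genes (right) on each untreated array, as log2 signal minus the array's 75th percentile; colours give the cell type and shapes the replicate. Runx1, Gfi1b, Gata1, Spi1, Ikzf1, Myb and Nfe2 lie far higher in HP than in HE1, with HE2 between or near HP, whereas Tal1 and Gata2 lie close together in the 3 cell types.

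Of 32 genes shared by the blood lineages that were tested, 17 rose and none fell, all 32 differences were positive, and their median was 3.42. Coro1a, an actin regulator of leukocytes, read -1.70 and -1.28 in HE1 and 5.23 and 5.77 in HP (6.99, SE 0.60, adjusted p = 1.92e-06). The signalling adaptors Tyrobp (DAP12) and Fcer1g (the Fc receptor gamma chain) rose by 6.56 and 6.56, and Plek (pleckstrin), a protein kinase C substrate, by 6.22. Plek read 0.18 and 0.35 in HE1 and 6.18 and 6.78 in HP. The guanine nucleotide exchange factor Vav1 rose by 5.24, the hematopoietic GTPase Rac2 by 4.95, and the integrin subunit Itga4 by 4.01. Others that rose were Was, the Wiskott-Aldrich protein (4.06), and Hcls1, a cortactin relative (4.0). Ptprc (CD45) read -2.86 and -2.79 in HE1 and 0.49 and -1.04 in HP, a difference of 2.54 that just missed the threshold (SE 0.76, adjusted p = 0.0685). Spn (CD43) read -2.26 and -1.23 against 0.65 and 1.04 (2.58, adjusted p = 0.0734). Between 12 (without HP replicate 1) and 16 members of the list were called when 1 array was left out.

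Myeloid genes rose too, with 13 of 28 tested called higher, none lower, and a median difference of 3.15. Mpo, the myeloperoxidase of granule-forming progenitors, read 0.34 and 0.26 in HE1 and 6.24 and 6.54 in HP (6.09, SE 0.75, adjusted p = 8.59e-05). Lyz1, a lysozyme, read -3.39 and -3.42 against 1.13 and 2.49 (5.21, SE 0.78), and Ncf4, a subunit of the phagocyte oxidase, -1.80 and -1.54 against 3.29 and 3.61 (5.12, SE 0.62). Of the myeloid factors, Cebpa rose by 3.54, Cebpb by 3.88 and Irf8 by 3.21. Cebpa was well above background on 1 of the HE1 arrays only, and Irf8 kept its call in 2 of 4 fits without 1 array. Further receptors and granule genes called higher were Cd14, a lipopolysaccharide co-receptor (4.78), the fractalkine receptor Cx3cr1 (6.00), and the granule protease Prtn3 (at least 7.18-fold). Among receptors of mature myeloid cells that did not pass the test, Itgam (CD11b) read 5.51 and 6.13 in HE1 and 3.69 and 3.20 in HP (-2.37, SE 0.85, adjusted p = 0.160), and Csf1r, the M-CSF receptor, 2.00 and 0.80 against 2.99 and 3.77 (1.98, SE 0.93, adjusted p = 0.354). After normexp correction the median of the myeloid list was 0.80, and without HP replicate 1 the count fell to 7.

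Megakaryocyte genes were represented by 9 of 24 tested that rose and 1 that fell (median 1.99), and erythroid genes by 2 of 24 that rose and none that fell (median 1.37). The erythroid count was 4 with median scaling and with slide as a fixed block, and 1 after normexp correction and without HE1 replicate 1, HE1 replicate 2 or HP replicate 1. Itgb3, the partner of CD41 on platelets, read 0.03 and 0.59 in HE1 and 5.69 and 6.44 in HP (5.75, SE 0.82, adjusted p = 0.000330). Gp9, whose promoter is shown above, rose by 4.02, and the ATP-gated channel P2rx1 by 4.55. Mmrn1 (multimerin 1), stored in platelets and endothelium, was at least 43.0-fold higher. Vwf, also shared by platelets and endothelium, read 2.96 and 2.78 against -0.32 and -0.98 and was the member that fell (-3.52, SE 0.84, adjusted p = 0.0184). It was not called in any fit without 1 array. Pf4, platelet factor 4, read -0.84 and -2.90 against 0.31 and 0.35 and did not pass the test (2.20, SE 1.17).

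The 2 erythroid genes called were Car2, a carbonic anhydrase, at 1.92 and 2.59 against 5.69 and 5.62 (3.39, SE 0.59), and Rhag, an ammonium channel of red cells. Rhag was not above background in HE1 and was at least 1.19-fold higher, and its difference was -0.40 after normexp correction. No globin passed the test. Hbb-bh1, an embryonic beta-like globin, read 5.04 and 5.09 in HE1 and 7.19 and 8.03 in HP (2.55, SE 0.89, adjusted p = 0.144). Hbb-y read 2.20 and 1.97 against 2.37 and 2.96 (0.58, SE 1.18), and the adult Hba-a1 -0.35 and -2.60 against 1.63 and 1.93 (3.25, SE 1.46). Klf1, the erythroid Krüppel-like factor, read -3.39 and -2.90 against -0.21 and -0.65 (2.72, adjusted p = 0.196), and was called on the DOX arrays (4.29). The erythropoietin receptor Epor stood at 2.49 and 2.68 against 2.70 and 3.08.

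Of the receptors for hematopoietic cytokines, 7 of 20 tested rose and none fell (median 1.59). Csf2rb, the common beta chain for GM-CSF and IL-3, read 1.41 and 1.76 in HE1 and 5.41 and 5.14 in HP (3.69, SE 0.60, adjusted p = 0.000919), and Csf2rb2, its IL-3-specific copy in the mouse, rose by 2.75. The sequences of this pair are similar, and signal shared between their probes cannot be told apart. Il6ra rose by 4.37, Il10ra by 4.07, Il17ra by 4.38 and the chemokine receptor Ccr2 by 3.66. Without HP replicate 1 the count fell to 4.

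Some endothelial genes were lower in HP. Of 39 tested, 9 fell and 1, Mmrn1, rose, and the median difference was -2.16, with 34 of 39 negative. Emcn (endomucin), an endothelial sialomucin, read 0.67 and 0.16 in HE1 and -3.75 and -4.86 in HP (-4.72, SE 0.93, adjusted p = 0.00504). The scavenger receptor Stab1 read 3.92 and 2.96 against -0.77 and -1.59 (-4.62, SE 1.00, adjusted p = 0.00987), and Cldn5, a tight junction protein, 3.00 and 0.49 against -2.01 and -3.45 (-4.48, SE 1.05, adjusted p = 0.0171). Nos3, the endothelial nitric oxide synthase, read 5.36 and 5.67 against 0.16 and 0.58 and fell by 5.15. Other falls were Mmrn2 (-4.78), the thrombomodulin gene Thbd (-4.10) and the semaphorin and VEGF co-receptor Nrp2 (-2.33). These calls depended on single arrays: without HE1 replicate 1 none of the list was called lower, without HP replicate 1 only 1, and at most 4 in the other fits. Stab1, Cldn5 and Nrp2 kept their calls in 1 of 4 such fits, and Nos3 and Mmrn2 in none.

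Classical endothelial receptors did not pass the test. Cdh5 (VE-cadherin) read 5.09 and 6.23 in HE1 and 3.26 and 3.74 in HP (-2.16, SE 1.53, adjusted p = 0.616), Kdr (FLK1) 4.44 and 5.74 against 3.90 and 4.81 (-0.74, SE 0.82), and Pecam1 (CD31) 1.28 and 1.72 against 1.37 and -0.85 (-1.24, SE 0.88). The replicates of Kdr and Pecam1 overlapped between the cell types. None of the 12 ETS and SOXF factors tested was called, with a median of -1.02. Sox17 read 2.25 and 3.86 against -2.54 and -0.97 (-4.81, SE 1.47, adjusted p = 0.0778), Sox7 3.89 and 4.51 against -1.24 and -0.14 (-4.88, SE 1.73, adjusted p = 0.150), and Sox18 2.91 and 3.91 against 0.12 and 1.05 (-2.82, SE 1.53). With slide as a fixed block 3 of the 12 were called lower, and 1 after quantile normalization and in the authors' values. Fli1 read 2.86 and 3.66 against 2.47 and 3.08, and Erg 1.97 and 0.78 against 0.68 and 0.84.

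Arterial and Notch genes fell in 6 of 19 tested and rose in 1, with a median of -1.47. Efnb2 (ephrin B2), an arterial marker, read 3.58 and 3.41 in HE1 and -1.23 and -0.49 in HP (-4.35, SE 0.66, adjusted p = 0.000568), while its other probe gave -2.28. The endothelial receptor Notch4 read 3.46 and 3.34 against -0.14 and -0.28 (-3.61, SE 0.74, adjusted p = 0.00709). The Notch target Hey2 fell by 3.87, the ligand Dll1 was at least 8.87-fold lower, and the guidance receptor Unc5b fell by 3.55. Nr2f2 (COUP-TFII), a venous factor in this list, read 1.04 and 0.58 against -1.78 and -1.60 (-2.50, SE 0.60). The member that rose was the Notch ligand Jag1, at -0.75 and -0.60 against 1.34 and 1.50 (2.10, SE 0.56, adjusted p = 0.0371). Its call was lost with any 1 array left out. Notch1 read 0.59 and -0.51 against -0.68 and -1.28 (-1.02, SE 0.79), and Dll4 -2.24 and -2.92 against -4.01 and -4.0 (-1.43, SE 0.90). Without 1 array, between 1 (HP replicate 1) and 3 members were called lower.

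Genes of the basement membrane and matrix that were called all fell. Among collagens, laminins and their partners, 10 of 33 tested fell, none rose, 31 differences were negative and the median was -1.99. The type IV collagen chains of the vessel wall read 5.34 and 5.28 in HE1 and 2.08 and 2.06 in HP for Col4a1 (-3.24, SE 0.68, adjusted p = 0.00797) and 4.82 and 5.65 against 2.20 and 3.17 for Col4a2 (-2.55, SE 0.56, adjusted p = 0.0104). Their genes lie head to head and share a promoter region. Col4a1 was not called in any fit without 1 array, and Col4a2 in 2 of 4. Fbn1, the microfibril protein fibrillin, read 3.20 and 3.88 against -1.82 and -0.74 (-4.82, SE 0.77, adjusted p = 0.000895) and kept its call in all 4. Fn1 (fibronectin) read 7.88 and 8.71 against 4.91 and 6.24 (-2.72, SE 0.68). Lama4, the laminin chain of endothelium, fell by 3.74, Nid1 (nidogen) by 3.27, Col1a2 by 3.16 and the crosslinking enzyme Loxl2 by 3.14. Without HP replicate 1 the count of the list was 2, and without HP replicate 2 it was 11.

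Adhesion genes split. Of 37 integrin and junction genes tested, 7 fell and 2 rose, and the 2 that rose were Itga4 and Itgb3, named above. Itga1, a collagen-binding integrin, read 2.36 and 0.82 in HE1 and -1.71 and -3.09 in HP (-3.99, SE 0.68, adjusted p = 0.00153). Tjp1 (ZO-1), a scaffold of tight junctions, read 3.65 and 3.71 against -0.48 and 0.91 (-3.46, SE 0.65, adjusted p = 0.00352), Itga9 2.21 and 1.93 against -1.19 and -0.87 (-3.10, SE 0.58), and Cdh2 (N-cadherin) 5.49 and 5.31 against 1.21 and 3.26 (-3.16, SE 0.65). Itga5, a subunit of the fibronectin receptor, did not pass the test (-0.50, SE 0.84). Without HP replicate 1 the count was 1, and without HE1 replicate 2 it was 9.

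Smooth muscle and actin genes gave 3 falls of 27 tested (11.1%, against 2.53% of all genes tested) and no rise (median -0.71). Among the falls were the actin binder Cald1 (-2.99) and the myosin Myo1e (-1.91). The count of falls was 1 without HE1 replicate 1 or HP replicate 1, and 0 with each array scaled to its median. The contractile markers varied between replicates. Acta2 read 8.42 and 6.34 in HE1 and 5.03 and 6.70 in HP (-1.51, SE 0.67, adjusted p = 0.310), and Tagln 7.78 and 7.36 against 3.69 and 7.10 (-2.18, SE 0.94, adjusted p = 0.288). In both genes the HP replicates were further apart than the means of the cell types. The summed level of the list was 1340 and 1100 times the 75th percentile in HE1 and 505 and 1370 in HP.

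**Figure D3:**
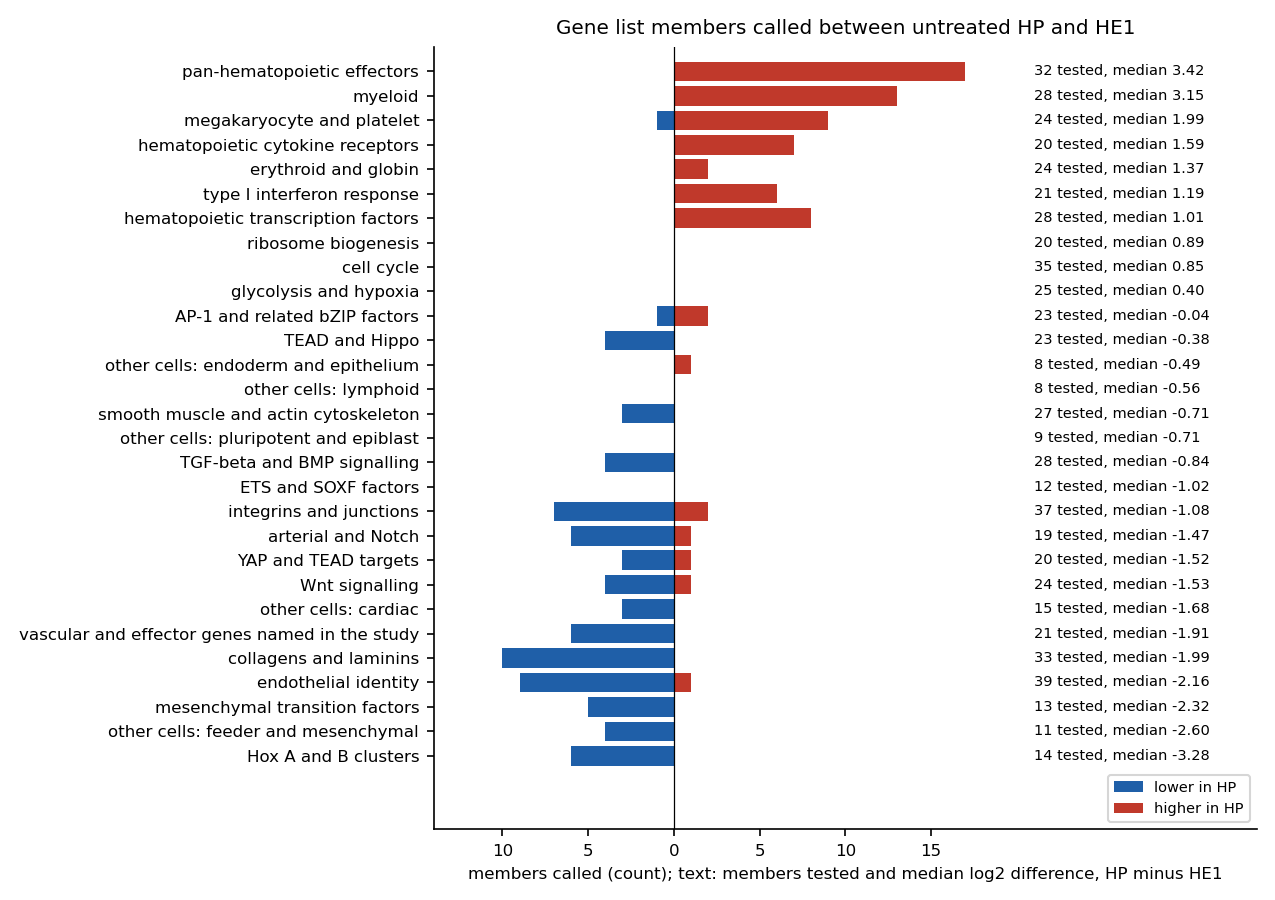
Number of members of each gene list called higher (right of 0) or lower (left of 0) in untreated HP than in HE1; the text at the right gives the members tested and their median log2 difference. Blood lists stand at the top with rises and almost no falls, and matrix, endothelial and Hox lists at the bottom with falls.

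These counts also moved with the scaling and the slide block. With each array scaled to its median, the counts of falls were 4 for collagens and laminins, 4 for arterial and Notch genes, 3 for integrins and junctions, 3 for Hox genes, 2 each for TGF-beta and mesenchymal transition genes and 9 for endothelial genes. With slide as a fixed block they were, in the same order, 17, 9, 12, 9, 7, 8 and 17. Rises of the genes shared by the blood lineages numbered 20 to 24 under the other scalings and with slide fixed, and those of the myeloid list 8 after normexp correction and 14 to 19 otherwise.

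Of 23 AP-1 and related bZIP factors tested, 2 were called higher (8.7%) and 1 lower (4.35%), against 1.70% and 2.53% of all genes tested. The list is too small for these shares to be told apart. Its median of -0.04 turned positive under quantile and median scaling and in the authors' values. No FOS, JUN, ATF or JDP gene was among the called genes. Without HE1 replicate 1 or HP replicate 1 the counts were 1 and 0, and with median scaling and after normexp correction none was lower. The called genes were Nfe2, a CNC factor also counted among the hematopoietic factors, Batf and Maf. Batf, a factor of leukocytes, was at least 6.93-fold higher, and Maf fell from -0.92 and -3.33 to -6.51 and -4.40 (-3.33, SE 0.91, adjusted p = 0.0439). The classical FOS and JUN subunits gave smaller differences. Jun read 6.99 and 6.61 against 6.14 and 6.28 (-0.59, SE 0.57), Jund 6.26 and 6.58 against 7.50 and 7.50 (1.08, SE 0.69), Fos 2.30 and 3.63 against 3.31 and 3.89 (0.64, SE 0.83), and Junb -1.40 and -1.46 against 1.10 and -0.36 (1.80, SE 0.92). None of these 4 passed the test. Atf3 read 3.07 and 2.99 against 1.23 and 0.95 (-1.94, SE 0.71, adjusted p = 0.173), and was called lower on the DOX arrays (-4.32).

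Factors of the Hippo pathway fell in 4 of 23 tested and none rose, with a median of -0.38 that was 0.23 with each array scaled to its median, where none of the 4 was called. Yap1, the co-activator of TEAD factors, read 4.92 and 4.82 in HE1 and 1.40 and 2.59 in HP (-2.88, SE 0.58, adjusted p = 0.00608). Tead1 read 3.76 and 3.35 against 0.26 and 1.53 (-2.66, SE 0.72, adjusted p = 0.0421) and Tead4 -0.81 and -0.53 against -3.77 and -2.30 (-2.37, SE 0.63, adjusted p = 0.0365). Amotl1, an angiomotin that binds YAP1, fell by 1.79. Tead2 read 4.83 and 5.27 against 2.92 and 3.87 (-1.65, SE 0.54, adjusted p = 0.111), and the other co-activator, Wwtr1 (TAZ), 0.84 and 1.77 against 0.67 and 0.17 (-0.89, SE 0.50). Tead3 read between -3.71 and -2.95 on the 4 arrays. Without HE1 replicate 1 or HP replicate 1 none of the 4 was called, and Yap1 kept its call in 2 of 4 such fits, Tead4 in 1, Tead1 and Amotl1 in none.

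Target genes of YAP and TEAD fell in 3 of 20 tested and rose in 1 (median -1.52). Edn1 (endothelin 1) read 2.45 and 4.19 against -2.58 and -1.37 (-5.29, SE 1.31, adjusted p = 0.0245), with no call in any fit without 1 array. Fstl1, a secreted glycoprotein, read 6.27 and 6.28 against 2.42 and 3.39 (-3.37, SE 0.52, adjusted p = 0.000610), with a call in all 4, and Crim1 fell by 2.02. Nt5e (CD73), the enzyme that forms adenosine, was at least 7.17-fold higher and not called in any of the 4. Ccn1 (Cyr61) and Ccn2 (Ctgf) read -1.17 (SE 0.82) and -2.87 (SE 1.22) as differences and did not pass the test. Of 21 vascular and effector genes named in the study's text, 6 fell, none rose and 20 differences were negative (median -1.91). The study named them with these arrays in hand, and the list is no independent evidence of its direction. Its called members included Col4a1, the procollagen protease Bmp1 (-2.70, and -0.90 for another probe), the Wilms tumour factor Wt1 (-3.21), the TAM receptor ligand Gas6 (-3.17) and Myo1e. Most or all calls of the list were lost without HE1 replicate 1, HE1 replicate 2 or HP replicate 1. The median of the list was -1.80 without HE1 replicate 1 and -2.14 without HE1 replicate 2. It was -0.95 without HP replicate 1 and -3.11 without HP replicate 2.

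Of 28 genes of TGF-beta and BMP signalling tested, 4 fell and none rose (median -0.84). Bmp6 read 0.53 and 1.92 in HE1 and -3.65 and -2.76 in HP (-4.43, SE 0.94, adjusted p = 0.00889). The endothelial type I receptor Acvrl1 (ALK1) fell by 3.53, the type II receptor Bmpr2 by 2.24 and the co-receptor Tgfbr3 by 1.94, and these 3 were not called in any fit without 1 array. Bmp6 was called in 2 of the 4, and without HE1 replicate 2 or HP replicate 1 none of the list was. Tgfb1, the ligand, read 1.44 and 1.58 against 3.95 and 3.87, a difference of 2.40 with no overlap that did not pass the test (SE 0.82, adjusted p = 0.130). Of 13 factors of mesenchymal transition, 5 fell and none rose (median -2.32): Foxc2, named above, Tbx20 (-4.20), Cdh2, Twist1, at -0.63 and -0.21 against -2.92 and -3.47 (-2.78, SE 0.53, adjusted p = 0.00411), and Zeb1 (-1.68). Snai1 (-2.32, adjusted p = 0.0657) and Snai2 (-2.73, adjusted p = 0.144) did not pass. Without HP replicate 1 the count was 2. Zeb2, the relative of Zeb1, read 1.48 and 1.75 against 1.91 and 2.30.

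In the Wnt pathway 4 of 24 tested fell and 1 rose (median -1.53). Lef1, the nuclear effector, read 0.83 and -0.39 against -3.65 and -3.38 (-3.73, SE 0.72, adjusted p = 0.00421), and the receptor Fzd4 3.94 and 2.88 against 0.73 and 0.89 (-2.60, SE 0.56). The secreted inhibitors Dkk1 and Dkk3 fell by 4.12 and 3.45. Lgr5, the R-spondin receptor known as a stem cell marker, rose from -5.68 and -3.35 to -0.37 and -0.56 (adjusted p = 0.0152) and kept its call in 1 of 4 fits without 1 array. None of the 4 falls was called without HE1 replicate 1 or HP replicate 1, or with median scaling.

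The Hox genes of the A and B clusters had 6 falls, no rise and 13 negative differences of 14 tested. Their median was -3.28, but -1.59 after normexp correction and -1.50 in the authors' values. Hoxb2 read 1.60 and 1.62 in HE1 and -2.59 and -1.77 in HP (-3.79, SE 0.59, adjusted p = 0.000708), and was called in every fit without 1 array. Hoxb4 read 2.07 and 2.12 against -0.86 and 0.01 (-2.52, SE 0.56, adjusted p = 0.0122). Hoxb7 and Hoxb8 were not above background in HP and were at least 11.3-fold and 11-fold lower, and Hoxb5 fell by 4.99. Hoxa9 read -2.55 and -3.26 against -2.87 and -4.26. Without 1 array between 1 (HE1 replicate 1) and 5 were called.

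Interferon-response genes rose in 6 of 21 tested and none fell (median 1.19). Ifitm1 read 1.48 and 0.98 in HE1 and 5.15 and 5.18 in HP (3.94, SE 0.55, adjusted p = 0.000276). The antiviral oligoadenylate synthetases Oas2 and Oas1a rose by 4.40 and 3.63, the HIN-200 genes Ifi202b and Ifi204 by 4.28 and 2.35, and Usp18, which removes ISG15, by 3.82. Ifi202b and Ifi204 belong to a family of near-identical copies, and signal shared between them cannot be told apart. Irf7, a transcription factor of the pathway, read between -3.12 and -1.74 on the 4 arrays and was not called. Isg15 read 1.28 and 1.83 against 2.95 and 4.94 (2.39, SE 0.70, adjusted p = 0.0626). Without HE1 replicate 1 or HP replicate 2 the count was 3.

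None of the ribosome biogenesis and cell cycle genes was called by limma over all arrays. In the authors' values 2 and 3 of them were called higher, and with slide as a fixed block 3 and 5, with 1 cell cycle gene lower. After quantile normalization 1 cell cycle gene was called higher, and without HP replicate 2 1 was called lower. All 20 ribosome biogenesis genes tested had a positive difference (median 0.89, range 0.19 to 1.73, and a median of 0.63 after quantile normalization and 1.50 with median scaling), with Ncl (nucleolin) at 6.48 and 6.26 against 7.18 and 7.26 (0.85, SE 0.49). Of 35 cell cycle genes, 28 were positive and 7 negative (median 0.85, and 0.54 and 1.46 under these scalings), with Mki67 at 4.94 and 5.33 against 5.71 and 6.26 (0.85, SE 0.51) and Ccna2 (cyclin A2) at 3.77 and 3.92 against 4.64 and 4.64 (0.79, SE 0.50). Differences of this size lay near the median standard error of 0.7. The cyclin-dependent kinase inhibitors Cdkn1c and Cdkn2a read -1.97 (SE 0.83) and -1.50 (SE 0.61) as differences. Glycolysis and hypoxia genes had a median of 0.40 over 25 tested and no call, although 1 was lower after quantile normalization and in the authors' values and 1 higher and 1 lower with slide as a fixed block, with Vegfa at 1.30 and 3.15 against -1.04 and -0.24 (-2.87, SE 0.85, adjusted p = 0.0655).

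Markers of other cells moved with the step as well. The feeder and mesenchymal list summed to 100.0 and 52.4 times the 75th percentile on the HE1 arrays and to 6.03 and 15.1 on the HP arrays, with 4 of 11 tested called lower (Col1a2, Pdgfra, Fbln2 and Mfap5) and none higher. Without HE1 replicate 1 the count was 1 and without HP replicate 1 it was 0. The HE1 replicates were uneven for such genes: Col1a1 read 4.51 on replicate 1 and -1.55 on replicate 2, Lum 0.93 and -6.18, and Postn 2.62 and -0.85. The cardiac list summed to 49.0 and 78.2 against 8.90 and 32.5, and 12 of its 15 tested members had a negative difference (median -1.68). The 3 that fell were the mesoderm factors Gata4 (-3.72), Gata6 (-3.56) and Hand2 (-4.41). Gata6 read 2.08 and 3.01 against -1.40 and -0.63 and was called in every fit without 1 array. Of the defining genes of cardiomyocytes, Tnnt2 (-3.15, adjusted p = 0.0664) and Nkx2-5 (-2.56) did not pass the test, and Myh6 read between -3.57 and -2.06 on the 4 arrays. Without HP replicate 1 the count of the cardiac list was 1. The endoderm list summed to 158 and 38.5 against 21.3 and 97.9 and gave 1 rise, Afp, at least 3.85-fold, which was lost without HP replicate 1, without HP replicate 2 and after normexp correction. The pluripotency and lymphoid lists gave no call in 9 and 8 tested. The pluripotency list had 1 member lower after quantile normalization, in the authors' values and with slide as a fixed block. The lymphoid list had 1 higher after normexp correction, with quantile and median scaling and in the authors' values. With slide as a fixed block it had 1 higher and 1 lower. The part of any of these cells in the results above was not tested.

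**Figure D4:**
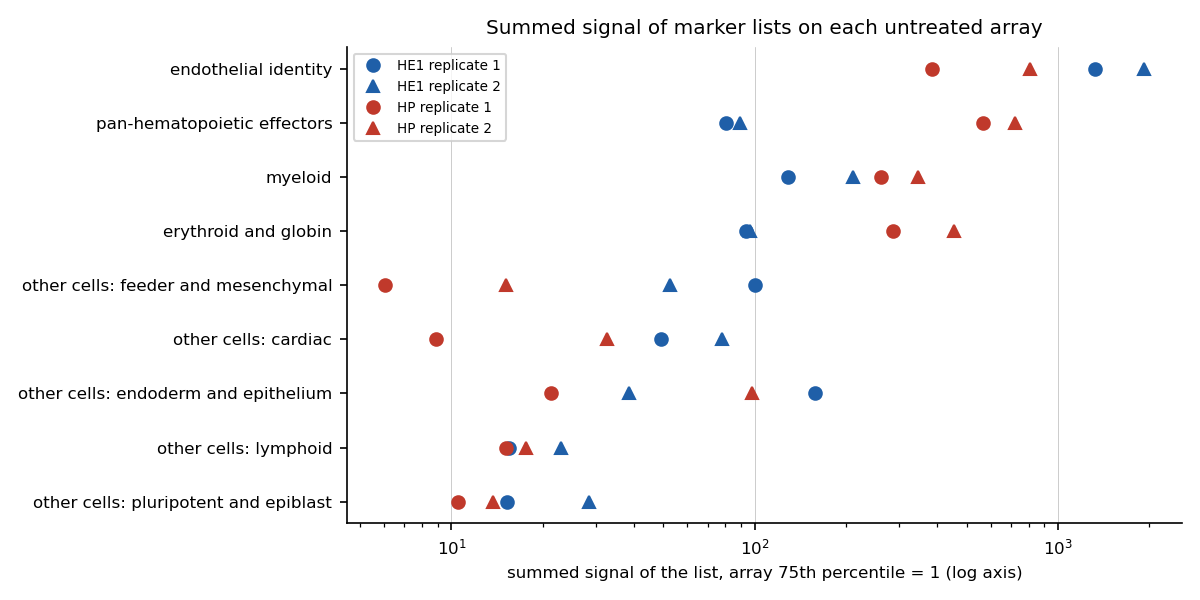
Summed signal of each marker list on the 4 untreated HE1 and HP arrays, as a multiple of the array's 75th percentile on a log axis. The pan-hematopoietic list was 80.4 and 89.4 in HE1 and 564 and 720 in HP, and the feeder list lay lower on both HP arrays than on both HE1 arrays.

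HE2 cells, which share the surface markers of both, had levels between them for most called genes. These values are a description, since the genes were chosen by their HE1 and HP levels. Of the 425 genes called higher in HP, 412 had an HE2 mean between the means of HE1 and HP, 9 were above HP and 4 below HE1. Of the 633 called lower, 491 lay between, 141 were below HP and 1 was above HE1. At HE2 the median rise was 59.0% complete (52.9% on replicate 1 and 68.6% on replicate 2), and the median fall 77.3% (77.3% and 78.4%). The signal of the HE2 arrays was uneven, with a 75th percentile of 78.8 on replicate 1 and 687 on replicate 2. Runx1 read 4.57 and 3.60 in HE2 and Gfi1b 3.67 and 4.51, close to HP, whereas Ccl3 read -2.17 and 1.49, Gata1 0.22 and 0.36, and Adgre4 -4.35 and -1.97. Among falls, Meis2 at -3.52 and -2.54 and Adgrf5 at -3.79 and -2.42 lay near their HP level, while Emcn at -0.82 and -1.12 and Gpr182 at 0.49 and 0.22 were not.

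The DOX arrays read the same step in other cells, in which dnFOS had been induced. They lay on the same slides as the untreated arrays, and the same fit gave the spread of each gene to both readings. The readings are therefore not independent. Genes called in untreated cells were called again in large part: 198 of the 395 called higher and tested there were also higher with DOX (50.1%), against 0.929% of all genes tested there, and 370 of 601 called lower were also lower (61.6%), against 2.14%. No gene was called in opposite directions. The sign was shared by 414 of the 425 and 632 of the 633. The median rise was 2.46 with DOX against 3.55 without, and the median fall -2.76 against -3.14, where the untreated values come from the arrays that chose the genes. The test of the difference between the steps called none of 26033 genes (364 had an unadjusted p under 0.05, and the lowest adjusted p rounded to 1). It called 6 after quantile normalization and 23 in the authors' values.

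Among the hematopoietic factors, all 28 tested with DOX gave 8 rises and no fall. These were not the same 8 genes, since Spi1 was not called with DOX. The steps of Gata1 (6.35 untreated, 6.21 with DOX), Runx1 (4.61 and 4.05), Gfi1b (5.00 and 4.40) and Nfe2 (4.83 and 4.58) lay side by side. Spi1 read 1.74 and 0.86 in HP without DOX and -1.84 and -1.94 with DOX (adjusted p = 0.123 for the step with DOX). It was not well above background on any HE1 array of either kind, so that the sizes of its steps cannot be compared. The median of the myeloid list was 3.15 untreated and 0.82 with DOX, where 5 of 23 tested were called, and that of the interferon list 1.19 and 0.14, where 1 of 18 was called higher and 1 lower. Cd14 read 4.78 and 0.64, Irf8 3.21 and 0.83, Oas2 4.40 and 0.49, and Lcp1 (L-plastin) 2.77 and 0.79. Because none of these differences passed the interaction test, the steps of these genes are not shown to differ. Endothelial and matrix falls had like medians in both readings, -2.16 and -2.05 for the endothelial list and -1.99 and -2.26 for collagens and laminins, with 7 and 10 members called lower with DOX. Hoxb2 (-3.79 and -4.33), Meis2 (-5.33 and -5.30), Efnb2 (-4.35 and -4.56) and Fbn1 (-4.82 and -5.26) fell in both.

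**Figure D5:**
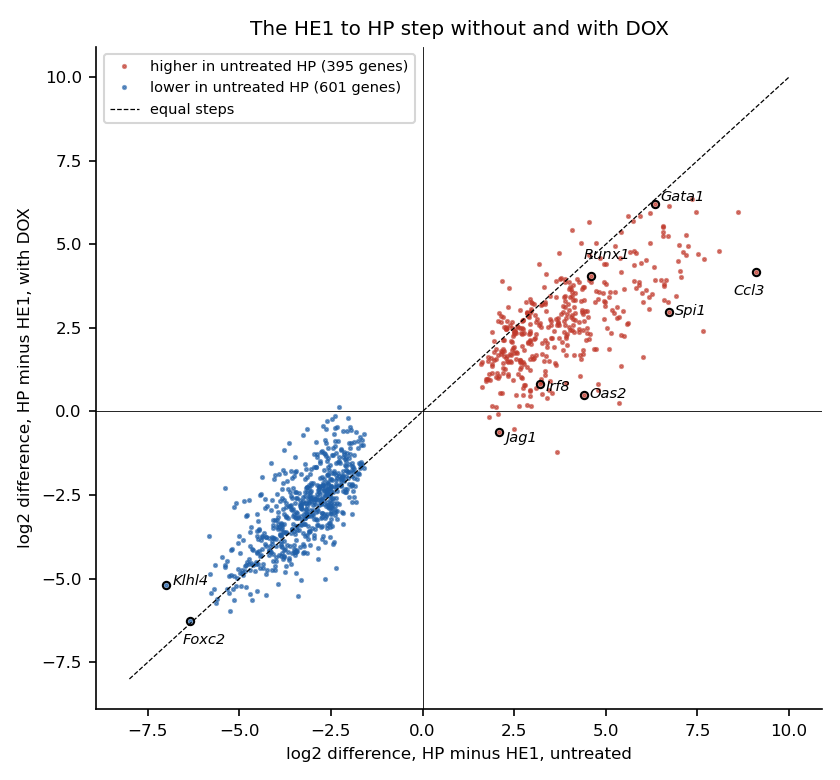
Log2 difference between HP and HE1 with DOX (vertical) against that without DOX (horizontal) for the 395 genes called higher and the 601 called lower in untreated cells that were also tested with DOX; the dashed line marks equal steps. Gata1 and Runx1 lie near the line, and Irf8 and Oas2 lie below it, as do Spi1 and Ccl3, whose plotted untreated steps rest on HE1 values below background.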

How the data were processed

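Per the labels and file headers, the authors hybridised each sample to 1 Agilent SurePrint G3 mouse 8x60K array with Cy3 and extracted it with Agilent Feature Extraction (10.7.1.1 in the submitters' processing notes). The deposited intensity used here is the background-subtracted, detrended signal of each spot, not scaled between arrays. The authors' processed values, on a log2 scale and with a normalization that is not given in the sources used here, served as an alternative. Of 62976 spots, outlier spots were left out, which made 832 probe values missing, and spots of a probe were averaged. Probes were named through RefSeq symbols, and 26582 of 55681 had 1 symbol. A gene with several probes was represented by the one with the highest mean. Values were log2 intensity minus the 75th percentile of each array.

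Differences were tested with limma 3.58.1 in R 4.3.3 (lmFit and eBayes, 13 group means over 27 arrays, 14 residual and 4.49 prior degrees of freedom), for genes well above background on both arrays of at least 1 of the groups, with Benjamini-Hochberg adjustment over all genes tested. A call needed an adjusted p under 0.05 and at least 2-fold. "At least N-fold" sets the brighter mean against, on each array of the dimmer group, the higher of the gene's own signal and the lowest signal well above background. The number of arrays limits the precision. The fit was tested on simulated data. The members and lists were chosen with earlier results of these data known. Of the lists, the 12 largest rises and 12 largest falls, anchor genes and up to 4 called members in each direction were named by rule, and further list members were named after their values were seen. Over lists no test was made. Unmatched symbols (Cd68, Clec7a, Hbb-b1, Ahsp, Col6a3, Col12a1, Atf7, Mx1, Mx2) were not analysed here, and a few genes are not reported here. Alternatives covered background correction, normalization, the filter on dim probes, probe choice, array weights, variance trend, slide and replicate blocks, the groups in the fit and leaving out each array.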

Additional observations from a re-analysis of the deposited data

Results flagged for a closer look

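In 3 of the named genes reported here the step from HE1 to HP had one sign on both slides without DOX and the opposite sign on both slides with DOX. The gap, with DOX minus untreated on the log2 scale, was 1.49 for Kdr (-0.74 untreated, 0.75 with DOX), -2.91 for Ptprc (2.54 and -0.37) and 1.76 for Cd3e (-0.57 and 1.19), a T cell receptor chain. None of these genes was called in either reading of the step. The limma test of the difference gave an adjusted p of 0.9998 for each of the 3, so that a difference between the steps is not shown.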

How the results depend on the processing

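With 2 arrays a group, the number of calls depended on how the spread was estimated. The 115 named genes that were called kept their direction wherever they were tested, with 1 exception. Rhag, called higher, had a difference of -0.40 after normexp correction. These calls were made on the same arrays and needed at least a 2-fold change, so that a kept direction is in large part built in. Against 425 genes called higher and 633 lower, array quality weights called 724 and 1022, slide as a fixed block 1262 and 1281, slide as a random block 1133 and 1308, an adjusted p under 0.01 245 and 272, genes well above background in both groups 231 and 379, and the 4 arrays alone 270 and 290. The authors' processed values called 930 higher and quantile normalization 817, and fewer were called lower with normexp correction (363) and median scaling (227). With DOX, against 231 higher and 531 lower, the counts were 478 and 826 in the authors' values, 670 and 1077 with slide fixed, 579 and 1049 with slide random, 114 and 250 at 0.01, 131 and 311 above background in both groups, 0 and 0 in the 2 groups alone, and 368 higher after quantile normalization. Leaving out 1 array gave 224 to 274 higher and 149 to 413 lower untreated, and 83 to 187 and 143 to 328 with DOX. The difference between the steps was called for 6 genes after quantile normalization, 23 in the authors' values, 1 without HE1 replicate 1 and 0 in the other fits without 1 array. A fit to the untreated groups alone gives no value for the DOX arrays.

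Replicate numbers mark no shared culture in the labels, and with 2 pairs no pairing could be shown, although same-numbered HE1 and HP arrays share a slide. Over all arrays the replicate number is not the slide. The replicate block called 506 higher and 740 lower over all arrays, and 0 and 0 in a fit to the 4 arrays alone, where 4258 genes had an unadjusted p under 0.05 and 1 residual degree of freedom remained. Of the 115 named genes called, slide as a fixed block, slide as a random block, array weights and the mean of all probes kept all 115, normexp 91 and median scaling 85, and leaving out 1 array kept 59 (HP replicate 1) to 85 (HE1 replicate 2). For named genes that were not called no direction was followed.

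Over all lists, with a gene in several lists counted once, 63 genes were called higher and 69 lower. The higher count was 37 for genes above background in both groups, 0 in the blocked fit to the 4 arrays and 41 to 55 without 1 array. The lower count was 104 with array weights, 124 and 121 with slide fixed and random, 32 with median scaling, 37 in the 2 groups alone, 29 at 0.01, 0 in the blocked fit and 12 to 51 without 1 array.

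Promoter shares moved with the genes called, and the AP-1 share below counts TGANTCA with any base at N. Among genes called higher, the RUNX share was 16.0% with slide fixed, 16.7% with slide random and 23.2% to 27.6% without 1 array, the ETS share 20.5% in the authors' values, 20.0% after normexp, 27.1% and 25.1% with slide fixed and random, the AP-1 share 8.29% to 12.4% and the TEAD share 8.28% to 11.2% without 1 array. Among genes called lower, the AP-1 share was 7.19% at 0.01, 7.43% in the 2 groups alone and 5.75% to 6.67% without 1 array, the TEAD share 19.7% with median scaling and 14.7% to 20.7%, and the E-box share 4.72% with median scaling, 5.41% in the 2 groups alone and 2.30% to 8.82%. Differences near the median standard error of 0.7 and genes near background are beyond what these arrays resolve.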

Other observations

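Some gene families outside the lists were read by their symbols after the results were seen, as values with no test of the family. Their counts stand against 1.70% higher and 2.53% lower over all genes tested. Of 18 chemokine ligands tested, 5 rose and 2 fell. Besides Ccl3 and Ccl9, Ccl6 read -0.83 and -1.38 in HE1 and 4.79 and 5.03 in HP (6.02, adjusted p = 0.000614), and Ccl4 and Ccl5 were at least 19.3-fold and 17.1-fold higher. The monocyte chemoattractants went the other way, with Ccl2 at 2.70 and 3.73 against -1.71 and -0.10 (-4.12, adjusted p = 0.00607) and Ccl7 at -3.87. Of 14 chemokine receptors tested, 4 rose and none fell, namely Cx3cr1, Cxcr2, Cxcr3 and Ccr2. Ccl6 had a step of 1.63 with DOX (adjusted p = 0.666). Cxcr2 in HE1 and Ccl7 in HP were well above background on 1 of 2 arrays only.

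Adhesion G protein-coupled receptors split in the same way, with 4 of 15 tested higher and 2 lower. Adgrg1 (GPR56), known from blood stem cells, read -1.41 and -0.46 in HE1 and 4.54 and 6.00 in HP (6.20, adjusted p = 0.00171) and rose by 5.04 with DOX, and Adgrg3 rose by 4.26. Adgrb1, above background on 1 HP array only, fell by 3.07 along with Adgrf5. Of 13 purine receptors tested 3 rose, with P2ry13 at least 9.64-fold higher beside P2ry14 and P2rx1. Of the 6 GATA factors, Gata1 rose while Gata4 and Gata6 fell. None of 14 Sox genes and none of 6 genes of the Hox C and D clusters was called, although the median of the latter was -0.96 and all 6 differences were negative.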
